A study of Rattus norvegicus with 4 samples.

Results

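The glutathione S-transferases were followed in rat liver after α-naphthylisothiocyanate (ANIT), a toxicant of the bile duct epithelium given to rodents to model cholestasis. They were taken as every array feature whose gene symbols all begin with Gsta, Gstk, Gstm, Gsto, Gstp, Gstt, Gstz or Mgst, which gave 11 of 1936 features, standing for 9 symbols or symbol sets. Male Sprague-Dawley rats, of no stated age, received 1 intraperitoneal dose of ANIT in olive oil, 75 mg/kg, or the same volume of olive oil alone, and the right lateral lobe was taken 24 h later. RNA from 3 rats per condition was combined, so each condition is 1 pool. ANIT and olive oil cDNA were hybridised together on 4 spotted cDNA arrays. The ANIT pool carried Cy5 on arrays 1 and 3, called the Cy5 orientation here, and Cy3 on arrays 2 and 4, the Cy3 orientation.

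The deposited value is a log ratio per feature, read here as log2 of the ANIT pool over the olive oil pool. That direction is likely rather than stated. It rests on the labels naming olive oil as the first channel and ANIT as the second on every array, and with the opposite direction every sign below turns. The arrays are treated as repeat hybridisations of a single pair of pools. Each SD given (n = 4 arrays) therefore measures hybridisation error and dye, not the spread between rats, and the treatment effect has no p-value. A feature was called lower or higher when its mean reached 2-fold, a log2 ratio of 1 or -1, and the sign was the same on all 4 arrays. Ratios carry no level, so the tissue could not be checked by the abundance of its markers, and a lower ratio from fewer cells of a type cannot be told apart from one from less RNA per cell.

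Glutathione S-transferases join the thiol of glutathione to electrophilic compounds, which makes them more soluble and marks them for export from the cell. The cytosolic enzymes form classes named alpha, mu, pi, theta, omega and zeta, the kappa enzyme lies in mitochondria and peroxisomes, and the microsomal enzymes are a separate family of membrane proteins. In rat liver, hepatocytes are rich in alpha and mu enzymes, whereas the pi enzyme is scarce in normal adult hepatocytes, is found in bile duct epithelium and is a classic marker of preneoplastic foci. ANIT itself is conjugated with glutathione in hepatocytes and carried into bile in that form.

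The array covered the family in part. Of 31 protein-coding rat genes with these prefixes in RefSeq (assembly GRCr8), 9 were on named features: 1 of 8 alpha genes (Gsta2), 3 of 9 mu genes (Gstm2, Gstm5 and Gstm7), both pi genes (Gstp1 and Gstp3), 1 of 4 theta genes (Gstt1), 1 of 2 omega genes (Gsto1) and 1 of 4 microsomal genes (Mgst1). The kappa gene Gstk1 and the zeta gene Gstz1 were on no named feature, nor were the abundant liver genes Gsta1 and Gstm1. A pair of features carried the symbols Gstp1 and Gstp2 together. RefSeq lists Gstp2 as a synonym of Gstp1, and the gene ID given for Gstp2 matched no RefSeq gene, so both features are treated as features of the pi gene Gstp1 and marked Gstp1/Gstp2. The Gsta2 feature matched Gsta2 by its gene ID, but RefSeq also lists Gsta2 as a synonym of Gsta5, so the alpha feature is uncertain between these names. Gstp1 and Gstp3 are adjacent on chromosome 1 with 0 protein-coding genes between them, and Gstm5, Gstm7 and Gstm2 lie in the mu gene cluster on chromosome 2, separated only by other mu genes. Spotted cDNA can bind transcripts of close relatives, and the spotted sequences were not used here, so the part of such binding in any ratio was not tested.

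Upstream sequence is shown for the neighbouring pi genes, since the only member past 2-fold is a Gstp1 feature and the Gstp3 feature did not pass, and for Gsto1 and Mgst1, which both stood at the 1.5-fold limit. The windows are the 250 bases before the start that the RefSeq promoter table (GRCr8) gives, which for Gstp1 lies inside the span of the gene model. They lie at chr1:210769706-210769955 (minus strand) for Gstp1, at chr1:210787685-210787934 (minus strand) for Gstp3, at chr1:256662281-256662530 (plus strand) for Gsto1 and at chr4:172760680-172760929 (plus strand) for Mgst1. Capitals mark matches to TGANTCA, the element bound by activator protein 1, or to TGACNNNGC, the core of the antioxidant response element bound by NFE2L2.
Gstp1: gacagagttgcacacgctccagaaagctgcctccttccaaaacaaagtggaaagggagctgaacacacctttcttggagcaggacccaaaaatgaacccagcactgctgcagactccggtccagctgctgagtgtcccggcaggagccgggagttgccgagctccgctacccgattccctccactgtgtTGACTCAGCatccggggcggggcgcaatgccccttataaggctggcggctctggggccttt
Gstp3: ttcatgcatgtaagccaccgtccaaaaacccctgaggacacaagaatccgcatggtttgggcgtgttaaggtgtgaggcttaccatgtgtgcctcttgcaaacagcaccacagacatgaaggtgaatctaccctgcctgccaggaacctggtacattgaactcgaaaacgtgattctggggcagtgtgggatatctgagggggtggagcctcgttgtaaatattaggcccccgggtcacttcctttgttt
Gsto1: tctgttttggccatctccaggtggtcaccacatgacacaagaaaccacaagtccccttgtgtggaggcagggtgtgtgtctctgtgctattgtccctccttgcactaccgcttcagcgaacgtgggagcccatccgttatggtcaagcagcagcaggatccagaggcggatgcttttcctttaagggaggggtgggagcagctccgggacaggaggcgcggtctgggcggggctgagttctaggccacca
Mgst1: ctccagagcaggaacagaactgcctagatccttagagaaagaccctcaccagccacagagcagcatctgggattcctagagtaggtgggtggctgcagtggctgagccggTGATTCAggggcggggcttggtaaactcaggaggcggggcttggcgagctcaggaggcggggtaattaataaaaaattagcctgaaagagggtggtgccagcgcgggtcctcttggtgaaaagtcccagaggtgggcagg
In Gstp1 the 2 motifs overlapped in 1 stretch, TGACTCAGC, that began 61 bases before the start. Mgst1 held the activator protein 1 element alone, 140 bases before the start, and Gstp3 and Gsto1 held neither motif. Windows of this kind were found for 8 of the 10 member symbols, all but Gstt1 and Gstp2. On either strand, TGANTCA was in 3 of the 8 (Gstp1, Gstm5 and Mgst1) and in 6.34% of 33469 such windows, and TGACNNNGC was in 3 of the 8 (Gstp1, Gstm5 and Gstm7) and in 10.1% of all windows. The xenobiotic response element core bound by the aryl hydrocarbon receptor, GCGTG, was in 4 of the 8 (Gsta2, Gstm5, Gstp1 and Gstp3) and in 25.9% of all windows, and is not capitalised. These are letter matches in a short window and show no binding.

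Across the family, 10 of 11 features had a mean below 0, as did 77.2% of all features. Shares of all features count 485 features with no symbol, and were not computed over named features alone. Of the 11, 1 feature was lower by the 2-fold rule and none was higher. Of all 1936 features, 3.05% were lower and 0.775% higher by that rule, and a single call among 11 features sets nothing apart. The median of the 11 features was -0.45 and that of all features -0.25. On all 4 arrays 7 of the 11 lay below 0 and none lay above 0, against 17.6% and 11.9% of all features. At 1.5-fold 4 of the 11 were lower and none higher, against 6.92% and 2.48% of all features. Centring the arrays on their medians raised the median over all features by 0.17. It left 1 of the 11 lower at 2-fold, against 2.48% of all features, and 2 of the 11 at 1.5-fold, against 4.7%. In the Cy5 orientation alone 4 of the 11 were lower at 2-fold, against 34.5% of all features, and in the Cy3 orientation alone 1 of the 11, against 2.84%. If the values are natural logarithms, 2 of the 11 were lower at 2-fold, against 5.84% of all features.

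**Figure D1:**
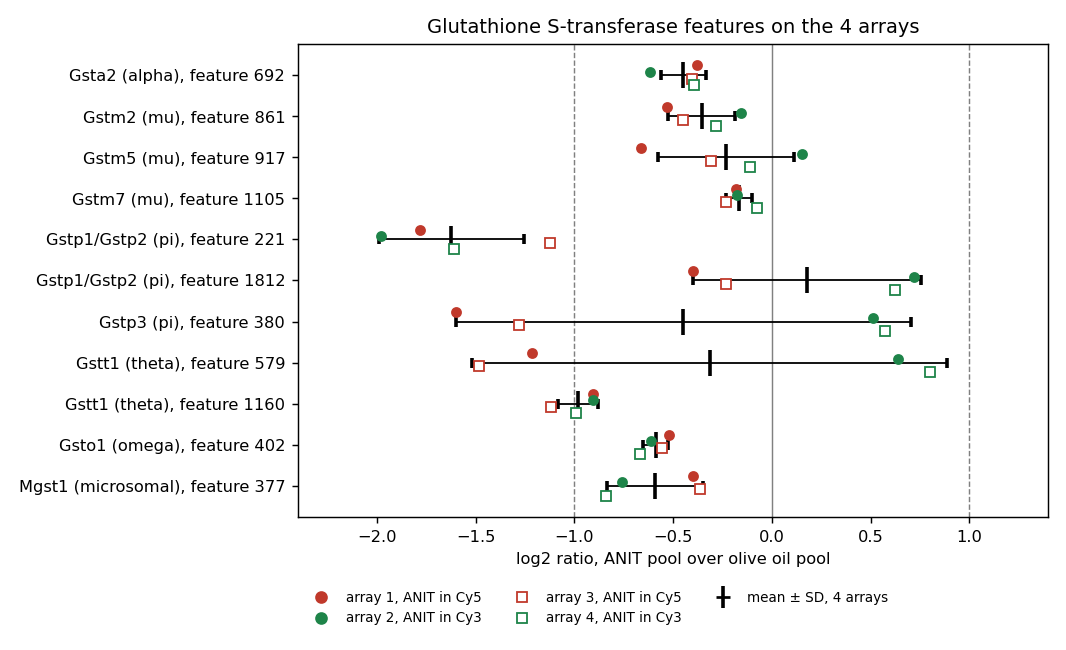
Log2 ratio of the ANIT pool over the olive oil pool for the 11 glutathione S-transferase features, with a point for each array (red, ANIT in Cy5; green, ANIT in Cy3) and a black bar for the mean and SD of the 4 arrays. Dashed lines mark 2-fold. Feature 221 of Gstp1/Gstp2 lies beyond 2-fold on all 4 arrays, with a mean of -1.62, and feature 1160 of Gstt1 lies just inside with -0.98, while Gstp3, feature 579 of Gstt1 and feature 1812 of Gstp1/Gstp2 have red points below 0 and green points above 0.

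The pi class held the lowest and the highest ratio of the family on features of the same gene. Feature 221 of Gstp1/Gstp2 read -1.78 on array 1, -1.98 on array 2, -1.12 on array 3 and -1.61 on array 4. Every array was below -1, and no other member reached that on all arrays. The mean of -1.62 ± 0.37 is a 3.08-fold lower ratio in the ANIT pool, ranked 22 from the lowest of all 1936 features. It was 2.73-fold lower in the Cy5 orientation and 3.47-fold lower in the Cy3 orientation, past 2-fold in both. Arrays 1 and 3, which carry the same dyes, differed by 0.66 on this feature, a gap at percentile 99.1 of all features, and its size is thus less exact than that of most features. Leaving out each array in turn gave -1.79 to -1.46 as the mean of both orientation means.

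The other Gstp1/Gstp2 feature, 1812, did not show this. It read -0.40, 0.72, -0.23 and 0.62 on arrays 1 to 4, below 0 in the Cy5 orientation and above it in the other. Its mean of 0.18 ± 0.58 was the highest of the family. Feature 221 was lower than feature 1812 on all 4 arrays, by a mean of -1.80 ± 0.82, which exceeds 2 times the SD. The difference was -1.14 in the Cy5 and -2.47 in the Cy3 orientation, so its size depended on the orientation. Averaged over both features, Gstp1/Gstp2 stood at -0.72 ± 0.26 and no longer passed the rule, and then 0 of the 9 family genes did, against 3.55% of genes with 1 symbol lower and 0.626% higher. Such a gap is uncommon on this array: among 345 symbols or symbol sets with at least 2 features, the median range between features was 0.20, and 4.93% had a range of 1 or more. The feature of Gstp3, the neighbouring pi gene, read -1.60, 0.51, -1.28 and 0.57, with a mean of -0.45 ± 1.15, and its sign followed the dye.

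The theta gene Gstt1, whose enzyme acts on small halogenated molecules, also had features that differed in kind. Feature 1160 read -0.91, -0.90, -1.12 and -0.99 on arrays 1 to 4, a narrow band that did not overlap 0. Its mean of -0.98 ± 0.10 is a 1.97-fold lower ratio, just short of the 2-fold rule. It passed the rule without array 1 (-1.03) or without array 2 (-1.002), which made 2 of the 11 features lower, against 3.15% and 3% of all features. Without array 3 (-0.93), without array 4 (-0.96) or with centred arrays (-0.81) it did not pass. Feature 579 read -1.22, 0.64, -1.48 and 0.80, with a mean of -0.32 ± 1.202. Feature 579 minus feature 1160 was -0.31 and -0.36 on arrays 1 and 3 but 1.54 and 1.79 on arrays 2 and 4. The difference thus repeated within each orientation but had opposite signs between them, -0.34 in the Cy5 and 1.67 in the Cy3 orientation. Its SD over the 4 arrays, 1.16, includes that change with the dye, and the mean difference was not larger than this spread.

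Gsto1 and Mgst1 had nearly the same mean, with little difference between arrays of the same orientation. Mgst1 differed more between the orientations, with -0.38 in the Cy5 and -0.80 in the Cy3 orientation, against -0.54 and -0.64 for Gsto1. Gsto1, the omega enzyme that reduces dehydroascorbate and methylated arsenic compounds, read -0.52, -0.61, -0.56 and -0.67, with a mean of -0.59 ± 0.063. Mgst1, a membrane-bound transferase and peroxidase of the endoplasmic reticulum and outer mitochondrial membrane, read -0.40, -0.76, -0.36 and -0.84, with a mean of -0.59 ± 0.24. Both were below 0 on every array. They stood at the 1.5-fold limit, and with centred arrays they moved to -0.42 and -0.43, short of it. Their difference, 0.0012, was not larger than the spread.

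The alpha and mu members, the classes most abundant in hepatocytes, did not reach 1.5-fold. Gsta2, an alpha enzyme that also reduces lipid hydroperoxides, read -0.38, -0.62, -0.41 and -0.39, with a mean of -0.45 ± 0.11. It was below 0 on all 4 arrays, and array 2 stood apart from the others. Gstm2 read -0.53, -0.15, -0.45 and -0.28 (mean -0.36 ± 0.17), and Gstm7 read -0.18, -0.18, -0.23 and -0.078 (mean -0.17 ± 0.064). Both were below 0 on all 4 arrays, but with centred arrays Gstm7 stood at -0.0010. Gstm5 read -0.66, 0.15, -0.31 and -0.11 (mean -0.23 ± 0.34) and lay on both sides of 0. Without array 1 the mean of its orientation means was -0.14. Gsta2 was lower than Gstm7 on all 4 arrays, by -0.28 ± 0.12, whereas the differences of Gsta2 from Gstm2 (-0.094 ± 0.27) and Gstm5 (-0.22 ± 0.44) were within the spread.

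By class, the medians were -0.65 for theta (2 features), -0.59 for omega (1), -0.59 for microsomal (1), -0.45 for alpha (1), -0.45 for pi (3) and -0.23 for mu (3). Within the pi class 1 pair of features differed beyond the spread, features 221 and 1812 of Gstp1/Gstp2. No pair within the mu class (-0.36 to -0.17) or the theta class (-0.98 to -0.32) did. The order of the classes depended on the dye orientation. The theta median was -1.18 in the Cy5 but -0.11 in the Cy3 orientation, where the medians of the microsomal (-0.80), omega (-0.64) and alpha (-0.51) classes were lower. The pi median was -1.44 in the Cy5 and 0.54 in the Cy3 orientation, so it has no stable sign. Of the 55 pairs of members, 15 differed on all 4 arrays in the same direction by more than 2 times the SD of the difference. Pairs of other features were not counted, so this number sets nothing apart. The SD of a difference includes the dye, and Gstp3 and feature 579 of Gstt1 were in none of the 15. Feature 221 of Gstp1/Gstp2 was the lower feature in 7 of these 15 and feature 1160 of Gstt1 in 6. Gsta2 against Gstm7 and Gsto1 against Gstm7 were the others. Features 221 and 1160 had the lowest means of the family. Against Gsta2, feature 221 was lower by 2.26-fold and feature 1160 by 1.45-fold.

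**Figure D2:**
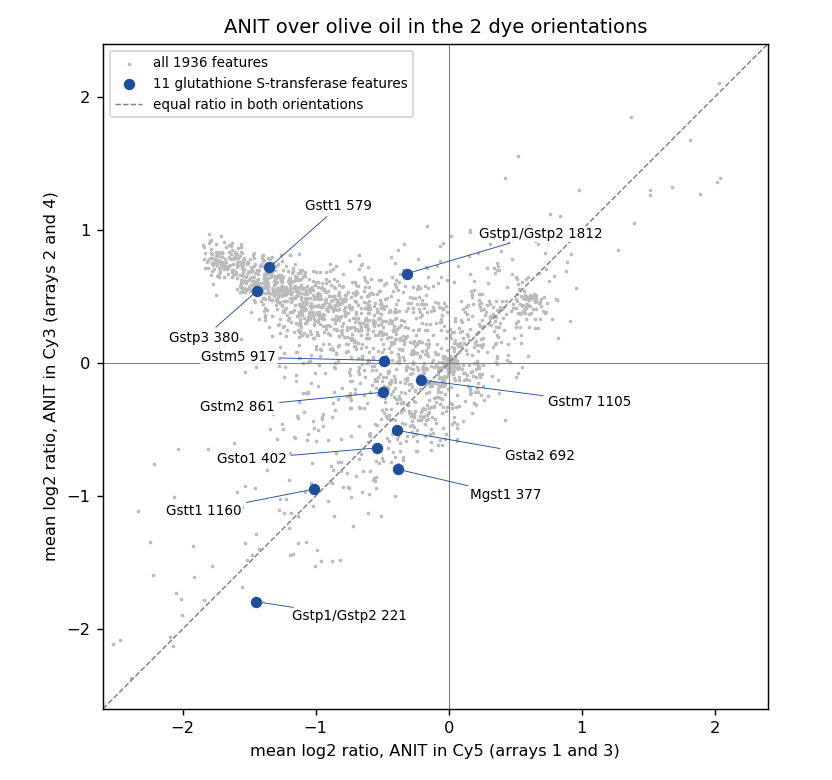
Mean log2 ratio in the Cy5 orientation (horizontal axis) against that in the Cy3 orientation (vertical axis) for all 1936 features (grey) and the 11 glutathione S-transferase features (blue), with the dashed line where both are equal. The axes leave out 6 grey features. Feature 221 of Gstp1/Gstp2, feature 1160 of Gstt1, Gsto1, Mgst1, Gsta2, Gstm2 and Gstm7 lie below 0 on both axes, while Gstp3 and feature 579 of Gstt1 lie in the arm of features below 0 on one axis and above 0 on the other.

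The orientation of the dyes separated the members into those with the same sign in both orientations and those without. Array medians over all features lay at -0.68 and -0.64 in the Cy5 orientation but at 0.31 and 0.35 in the Cy3 orientation, and 63.2% of all features had opposite signs in the orientations. Among the members 4 of 11 did: Gstp3, feature 579 of Gstt1, feature 1812 of Gstp1/Gstp2 and Gstm5. The dye contrast is the Cy5 orientation mean minus the Cy3 orientation mean, divided by 2, and is 0 where the ratio does not depend on the dye. It was -0.99 for Gstp3 and -1.03 for feature 579 of Gstt1, and at or below -0.5 in 43.2% of all features. Feature 1812 stood just outside that limit with -0.49. The remaining 8 members had dye contrasts between -0.25 and 0.21. In the plot of the orientations, Gstp3 and feature 579 lie among the dye-dependent features, whose medians were -1.195 in the Cy5 and 0.547 in the Cy3 orientation. A dye-dependent feature beside one that was not is common here, and occurred in 35.1% of symbols or symbol sets with at least 2 features. Spot intensities were not analysed here, and whether weak signal underlies the dye-dependent ratios was not tested.

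Features with 1 symbol outside the family were ranked by the root mean square difference of their values on the 4 arrays from feature 221. The nearest belonged to Cyb5r3 (0.32), a cytochrome b5 reductase, and Slc10a1 (0.37), the sodium-dependent carrier of bile acids into hepatocytes. Pklr (0.38), the liver pyruvate kinase, came next. The means of these 3 features were, in this order, -1.62 ± 0.13, -1.46 ± 0.025 and -1.65 ± 0.15. All 3 had smaller SDs than feature 221.

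Genes around the transferases in the glutathione pathway were described by gene means over features with 1 symbol. Over 958 such genes 34 were lower and 6 higher by the 2-fold rule. Their median was -0.24, with -0.62 in the Cy5 and 0.29 in the Cy3 orientation. Of 18 listed genes of glutathione synthesis, turnover and recycling, 3 were measured and none passed. Gclm, the modifier subunit of the enzyme that limits glutathione synthesis, stood at 0.036 ± 0.23, Gss, glutathione synthetase, at -0.14 ± 0.56, and Ggt1, which starts the breakdown of glutathione outside the cell, at -0.31 ± 1.11. The list median was -0.14, with -0.62 in the Cy5 and 0.34 in the Cy3 orientation. Glutathione and thioredoxin peroxidases and oxidoreductases had 8 of 29 listed genes measured, none past the rule and a median of -0.18, from Gpx2, a glutathione peroxidase, at -0.33 ± 0.26 to Txn1, thioredoxin, at 0.22 ± 0.38.

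Of the genes that export conjugates or turn them into mercapturates, 4 of 14 were measured and none passed. The median of -0.02 joins -0.59 in the Cy5 and 0.53 in the Cy3 orientation, so it has no stable sign. Abcc2, the canalicular pump for glutathione conjugates, read 0.42, 0.45, 0.35 and 0.40, with a mean of 0.40 ± 0.042. It was above 0 on every array, and no member of the transferase family was. Ggt1 was the lowest of this list, with -1.27 in the Cy5 and 0.64 in the Cy3 orientation. Of 41 other conjugation and hydrolysis enzymes only Ephx2, the soluble epoxide hydrolase, was measured on a feature with 1 symbol, at 0.013 ± 0.17.

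Among listed regulators of transferase transcription 4 of 20 were measured and none passed. Their median was -0.39, with -0.80 in the Cy5 and 0.14 in the Cy3 orientation. The lowest was Rxra, a partner of nuclear receptors, at -0.51 ± 0.20, and the highest Fos, a subunit of activator protein 1, at -0.07 ± 0.53. Neither Nfe2l2 nor Keap1 was measured under these symbols. Targets of NFE2L2 other than transferases had 6 of 25 genes measured, none past the rule and a median of 0.08. That median was -0.07 in the Cy5 and 0.32 in the Cy3 orientation. Nqo1, a quinone reductase, was the highest at 0.48 ± 0.38 and above 0 on all 4 arrays, and Me1, the cytosolic malic enzyme that supplies NADPH and also serves lipid synthesis, was the lowest at -0.86 ± 0.36. Of 8 listed targets of the aryl hydrocarbon receptor, Cyp1a2 was higher at 1.46 ± 0.19 and Nqo1 did not pass, giving a median of 0.97 over these 2 genes. The lists overlap in Gclm, Ggt1, Abcc2, Abcc4 and Nqo1.

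**Figure D3:**
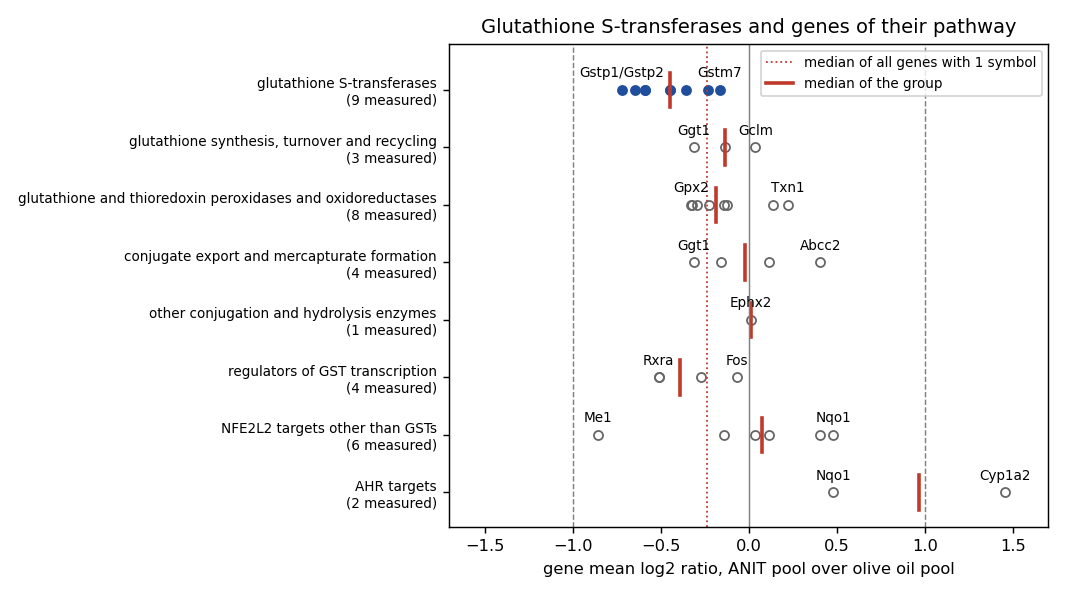
Gene mean log2 ratio of the ANIT pool over the olive oil pool for the 9 glutathione S-transferase symbols or symbol sets (blue) and for the measured genes of 7 pathway lists (open circles), with a red bar at the median of each group, a dotted line at the median of all genes and dashed lines at 2-fold. All 9 transferase means lie below 0, between -0.72 and -0.17, while Cyp1a2, at 1.46, alone lies beyond 2-fold.

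Markers of liver cell types were measured too thinly to follow cell content. Of 16 cholangiocyte markers 3 were measured, Spp1 (-0.37 ± 1.15), Ggt1 and Aqp1 (-0.13 ± 0.096), with array medians between -1.34 and 0.62. Hepatocyte markers, 6 of 15, had array medians between -0.55 and -0.027 and ran from Fah, an enzyme of tyrosine breakdown (-0.73 ± 0.12), to Apoa1 (0.07 ± 0.20). Endothelial markers, 4 of 9, ran from Kdr (-0.44 ± 0.48) to Icam1 (0.23 ± 0.26), with array medians between -0.95 and 0.28, and stellate cell and fibroblast markers, 3 of 12, from Col1a1 (-0.44 ± 0.72) to Vim (0.13 ± 0.073), with array medians between -0.84 and 0.23. A single neutrophil marker of 8 (S100a9, -0.13 ± 0.89, arrays between -0.94 and 0.65) and a single lymphocyte marker of 12 (Il2rb, -0.84 ± 0.12, arrays between -0.96 and -0.69) were measured, and none of 11 macrophage markers. No measured marker passed the 2-fold rule, and the part of cell content in the transferase ratios was not tested.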

How the data were processed

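Liver poly(A) RNA pools of ANIT and olive oil rats were compared on 4 dye-swapped spotted cDNA arrays. The authors deposited 1 log ratio per feature and array, taken as log2 here. Scanning, correction of background, the base and the direction were not given in the sources used here. Natural logarithms remain possible. Values were used as deposited, with no missing values among 1936 features. Symbols came from the platform annotation (1432 features with 1 symbol, 19 with several, 485 with none), and 1429 of the 1432 matched RefSeq by gene ID.

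For each feature the mean, SD, orientation means, dye contrast and size rule were computed. The dye contrast is the mean with ANIT in Cy5 minus the mean with ANIT in Cy3, divided by 2. The dye swap is balanced, so a dye effect of equal size and opposite sign in the orientations cancels in the mean. A dye effect of unequal size does not. The median of the means was -0.34 over features with a dye contrast at or below -0.5 and -0.08 over the rest. Whether a dye effect remains in the means was not tested. The number of arrays limits the precision. Text names all members, list members past the rule and each list's lowest and highest gene, plus the 3 nearest features with 1 symbol. Abcc4, Gss, Nfe2l2 and Keap1 were named outside that rule. Members and lists were chosen with earlier results of these data known. Alternatives were centring, single orientations, each array left out, natural logarithms, 1.5-fold, no sign rule, gene means and features with 1 transferase symbol only. With an array left out, the value is the mean of both orientation means, not the plain mean of the arrays left. Steps were tested on simulated data, in which the dye effect had equal size and opposite sign in the orientations. Computation used numpy 2.4.6 and pandas 2.3.3 in Python 3.11.15, with plots by matplotlib 3.10.9.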

Additional observations from a re-analysis of the deposited data

Results flagged for a closer look

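Gsta2 (feature 692) was set apart because array 2, at -0.62, stood away from the other arrays, which lay between -0.41 and -0.38. The gap was 0.883 of the whole range of the 4 arrays, above the limit of Dixon's test for 4 values. Chance alone puts about 5% of such groups past that limit, and 1 of the 11 features was past it. Without array 2 the ratio of Gsta2 was -0.39, against -0.45 with all 4 arrays.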

How the results depend on the processing

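Among the 11 features 1 was lower at 2-fold and 0 higher. The number higher stayed 0 under every alternative run. The number lower was 4 with ANIT in Cy5 only (34.5% of all features were then lower) and 2 with natural logarithms (5.84%). It was 4 at 1.5-fold (6.92%) and 2 at 1.5-fold with centred arrays (4.7%). By gene means it was 0 (3.55% of genes with 1 symbol), and with each array left out 1 to 2 (3% to 3.15% of all features). Feature 221 of Gstp1/Gstp2 was among those lower under every alternative by features that kept it. The alternative with features of 1 transferase symbol only leaves out both Gstp1/Gstp2 features, and its family median was -0.45. The family median of -0.45 was -0.28 with centred arrays, -0.22 with ANIT in Cy3 only and -0.65 with natural logarithms, and -0.46 to -0.38 with each array left out. With centred arrays the class medians were -0.28 for alpha, -0.07 for mu, -0.28 for pi, -0.48 for theta, -0.42 for omega and -0.43 for microsomal. With natural logarithms they were -0.65 for alpha, -0.85 for omega and -0.85 for microsomal. The mu median was -0.49 with ANIT in Cy5 only. The pi median was -1.44 with ANIT in Cy5 only and 0.54 with ANIT in Cy3 only. Its SD over arrays, 1.12, includes that change with the dye and so cannot weigh it. No called value changed sign. The alternatives with centred arrays at 1.5-fold and without features of a dye contrast at or below -0.5 (medians -0.45 for the family, -0.72 for pi and -0.98 for theta) were chosen after seeing the data. The cause of these shifts was not tested. Spot signal over background was not analysed here, so weak features cannot be weighed. Each value already compares the 2 pools on the same array. The 4 arrays repeat 1 pair of pools, so they are not replicate pairs of rats.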
